A study of Mus musculus with 5 samples.

Results

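The genes described here are 9 of the 22869 gene symbols in a count table from newborn mouse gut epithelium. They are 7 amino acid transporter genes, namely Slc1a4, Slc1a5, Slc3a2, Slc7a1, Slc7a3, Slc7a5 and Slc38a2, and 2 transaminase genes, Gpt2 and Got1. They were chosen by symbol, as genes known to respond to amino acid shortage, at a time when results of the same comparison were already known. Each symbol was represented by its transcript row with the highest mean count. The differences between mutant and control libraries given for them are therefore a description, and no p-value is printed for them. All 9 passed the filter on low counts, Slc7a3 with few reads. The samples were intervillus cells, the epithelium between the newborn villi, cut by laser from the proximal jejunum at postnatal day 0. The 3 control libraries, numbered 1, 2 and 3, had the genotype written Dnmt1 L/+ and came from littermates, in areas stained for the proliferation protein Ki67. The 2 mutant libraries, numbered 4 and 6, had the genotype Dnmt1 L/L; VillinCre, in areas without that stain. VillinCre drives recombination in gut epithelium, so other cells in a captured area keep their Dnmt1. Genotype and staining go together and cannot be told apart here.

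Cells that lack an amino acid, or that meet other stress, phosphorylate the translation factor eIF2α, and the transcription factor ATF4 is then made from its mRNA. ATF4 binds C/EBP-ATF response elements and raises genes for amino acid uptake, for amino acid synthesis and for charging of tRNA. Exchangers such as LAT1, made of the heavy chain Slc3a2 and the light chain Slc7a5, bring in leucine in return for glutamine, and leucine reaches the growth kinase mTORC1. Transaminases move an amino group between an amino acid and a keto acid. In the gut, glutamine and glutamate from food are a main fuel of the absorptive cell.

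Counted with 1 row per gene, the libraries held 8730268 to 13356901 reads. No 2 libraries of a group agreed within sampling noise (chi-square per gene 9.94 to 25.2, where 1 is noise). Whether they came from separate mice is not in the labels, and a p-value here speaks only of the scatter among the 5 libraries. Tests are edgeR's quasi-likelihood test with Benjamini-Hochberg adjustment over all rows, at a threshold of 0.05. Differences are given as log2 ratios of mutant to control, the log2 fold changes of that fit, with SE. Dnmt1 fell (427 and 525 counts in mutants, 1351 to 2240 in controls; -1.56 ± 0.16; edgeR adjusted p = 3.74e-05), and so did Mki67, the gene of the staining marker (-0.84 ± 0.15; edgeR adjusted p = 0.00284). Sex-linked transcripts also separated the groups: 4 Y-linked genes summed to 2710 to 3160 counts per control library, against 4 and 3 counts in mutants. Sex, as read from these transcripts, thus goes with genotype and staining and cannot be told apart from them. All 11 markers of intestinal epithelium had counts in every library (summed level 4762 to 4891 CPM, reads scaled to library size (TMM), in controls, and 4458 and 4563 CPM in mutants). Of these 11, 1 rose (Krt18) and 1 fell (Cdx2), where 6.11% of all genes tested rose and 4.17% fell. In 6 of the 11 both mutants lay below all controls (21.8% of all genes), and in 1 above (21.7%). The summed level of 12 absorptive cell markers was 23380 to 36710 CPM in controls and 46180 and 47670 CPM in mutants, and that of 11 mesenchyme and smooth muscle markers 1188 to 1300 CPM and 1959 and 1827 CPM. Of these, 5 of 12 and 7 of 11 rose, beside 6.11% of all genes tested. The 5 became 8 without control 2 and 3 without mutant 4, and the 7 became 3 without control 1, 0 without mutant 4 and 4 without mutant 6. Of 9 markers of proliferating cells 5 fell and 0 rose, where 4.17% of all genes tested fell and 6.11% rose. Fewer of the 9 fell without mutant 4 or mutant 6. Of the markers that did not fall, Ascl2 and Lgr5 had higher means in mutants, without passing the edgeR threshold. Ascl2 was at 11.2, 9.94 and 3.59 CPM in controls and 14.9 and 16.1 CPM in mutants (0.90 ± 0.35). For Lgr5 the groups overlapped (0.24 ± 0.30). The summed level of 9 immune markers was 109 to 155 CPM in controls and 278 and 268 CPM in mutants, with Cd79a at 0 in 4 libraries. Higher sums in both mutants were also found for 7 neural markers (21.1 to 31.7 CPM in controls, 51.6 and 54.4 CPM in mutants; 1 of 4 tested rose), 8 enteroendocrine markers (201 to 264.5 CPM, 346 and 343 CPM; 3 of 8 rose) and 8 endothelial markers (176 to 209.8 CPM, 246 and 233 CPM; 0 of 8 rose at adjusted p, 3 of 8 had an unadjusted p under 0.05). Beside these counts, 6.11% of all genes tested rose, and 3732 of 14572 had an unadjusted edgeR p under 0.05. The part of these cell types in the differences below was not tested.

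Slc1a4 encodes ASCT1, an exchanger of alanine, serine, cysteine and threonine. Its level was 4.85, 5.92 and 4.37 CPM in controls 1, 2 and 3 and 16.7 and 16.4 CPM in mutants 4 and 6. The groups were far apart, and the mutants were almost equal to each other. The mean was 3.29 times as high in mutants, 16.6 ± 0.201 CPM (SD, n = 2) against 5.04 ± 0.795 CPM (SD, n = 3), and the log2 ratio was 1.71 ± 0.24. It was the largest difference among the 9 genes. In captured tissue, more cells of a type and more RNA per cell cannot be told apart, here and below.

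Slc1a5 encodes ASCT2, the close relative that takes up glutamine. Its level was 39.8, 40.2 and 43.9 CPM in controls and 40.4 and 49.6 CPM in mutants. Mutant 4 lay among the controls and mutant 6 above them, and the log2 ratio was 0.13 ± 0.15. The sign turned without mutant 6 (-0.03) and on the deposited FPKM (fragments scaled for transcript length and library size; -0.04). The 2 genes of this family thus differed between the groups by unlike amounts and also differed in abundance: per transcript length Slc1a5 stood at 13.4 ± 0.660 FPKM in controls and Slc1a4 at 1.51 ± 0.397 FPKM.

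Slc38a2 encodes SNAT2, a sodium-coupled carrier of small neutral amino acids that starved cells are known to induce. Its level was 142, 133 and 171 CPM in controls and 143 and 122 CPM in mutants. The groups overlapped, with a log2 ratio of -0.16 ± 0.15.

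**Figure D1:**
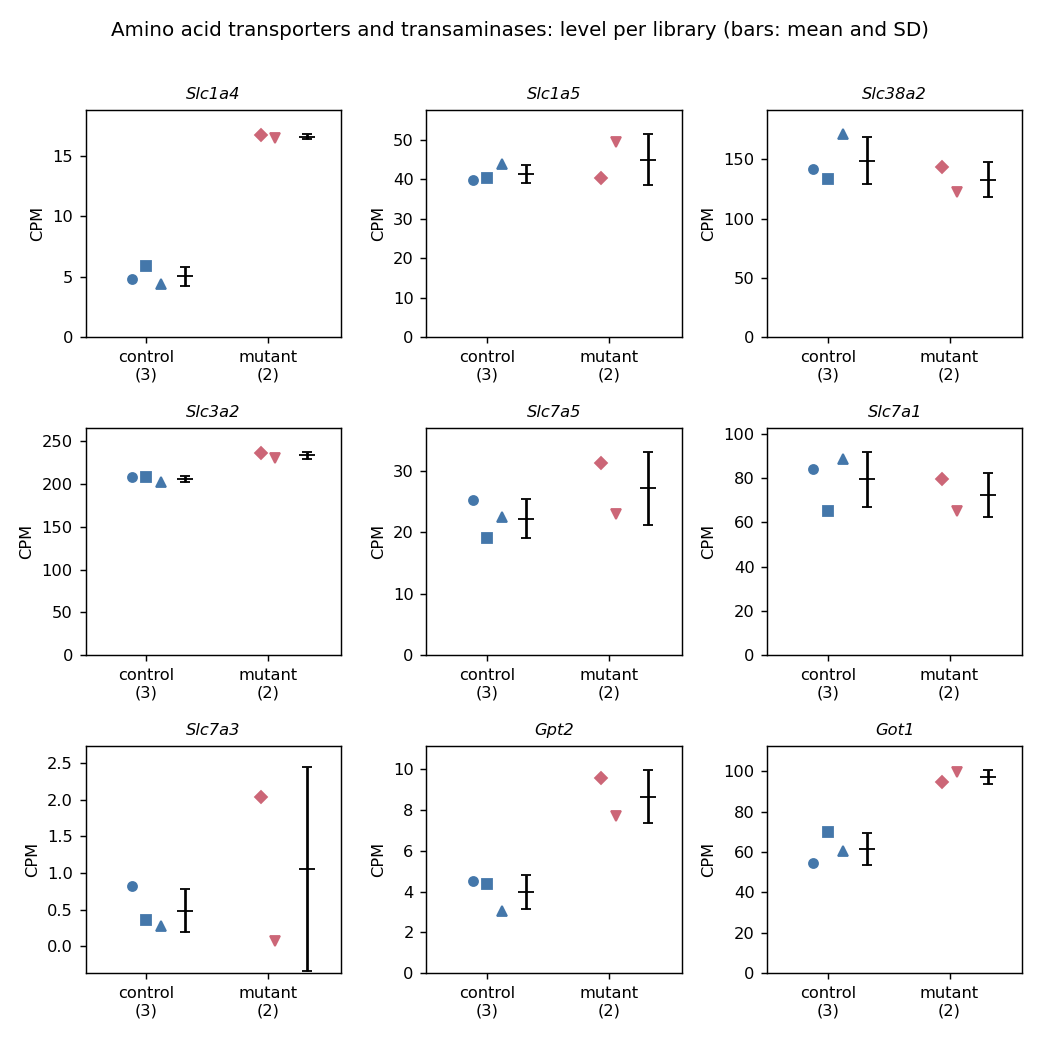
Level of each of the 9 genes per library, in CPM on linear axes, with 3 control libraries in blue and 2 mutant libraries in red; black marks are the mean and SD of each group. For Slc1a4, Gpt2, Got1 and Slc3a2 both mutants lie above all controls, by a small margin for Slc3a2 (230 and 236 against 202 to 208 CPM), and for the other 5 genes the groups overlap.

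Slc3a2 encodes 4F2hc, the heavy chain that carries several light chains to the cell surface. It was the most abundant of the 9 genes in both groups, at 208, 208 and 202 CPM in controls and 236 and 230 CPM in mutants. Both mutants were above all controls, by 1.13 times in the mean (log2 ratio 0.18 ± 0.12). On the deposited FPKM the groups overlapped, at 83.8, 79.1 and 68.5 FPKM in controls and 81.0 and 74.6 FPKM in mutants.

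Slc7a5 encodes the LAT1 light chain, which carries leucine and other large neutral amino acids. Its level was 25.2, 19.0 and 22.5 CPM in controls and 31.3 and 23.0 CPM in mutants. The log2 ratio was 0.29 ± 0.19. Mutant 4 lay above all controls and mutant 6 among them, and the difference was 0.05 without mutant 4. Slc7a5 stood at 6.35% to 9.15% of the Slc3a2 FPKM in controls and at 9.36% and 9.80% in mutants. Most light chain transcript was of other genes. Slc7a7, the y+LAT1 chain that releases cationic amino acids to the blood side, stood at 136% to 155% of Slc3a2 in controls and 200% and 262% in mutants. Slc7a8, the LAT2 chain of the same side, stood at 109% to 121% in controls and 76.6% and 79.8% in mutants. The sum over 6 light chains was 270% to 291% of Slc3a2 in controls and 295% and 362% in mutants. Slc3a2 thus differed little between the groups, while Slc7a7 and Slc7a8, both tested below, differed in opposite directions.

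**Figure D2:**
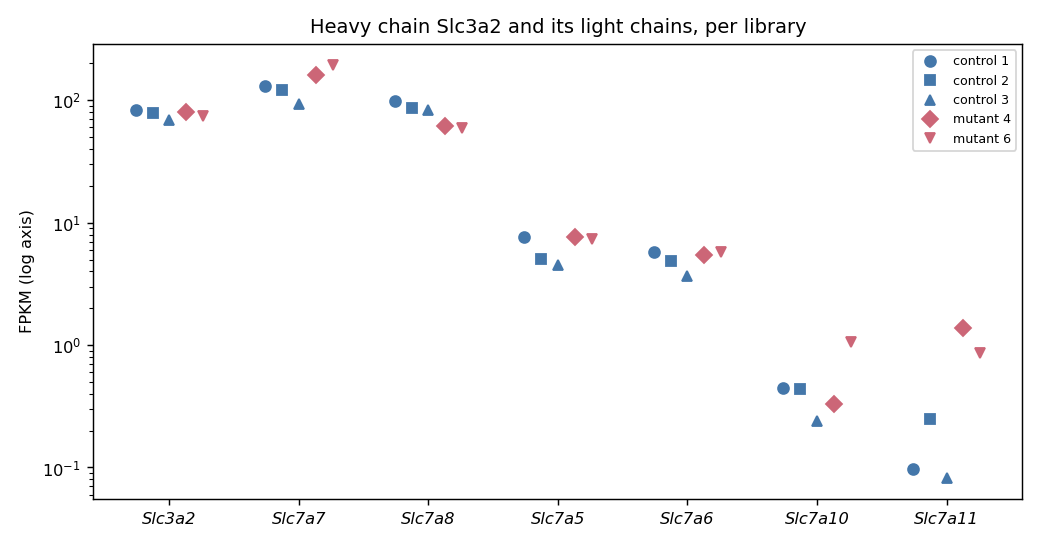
Deposited FPKM (log axis) of the heavy chain Slc3a2 and of 6 light chains in each library, controls in blue and mutants in red. Slc7a7 lies above Slc3a2 in every library, Slc7a8 lies above it in controls and below it in mutants, Slc7a5 and Slc7a6 lie well below, and Slc7a11 is at most 0.248 FPKM in controls and at 1.39 and 0.863 FPKM in mutants.

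Slc7a1 encodes CAT1, the widespread carrier of arginine and lysine. Its level was 84.1, 65.3 and 88.7 CPM in controls and 79.4 and 65.3 CPM in mutants, with a log2 ratio of -0.13 ± 0.16. The groups overlapped in CPM, whereas on the FPKM scale both mutants (9.56 and 8.65 FPKM) lay just below the lowest control (9.57 FPKM).

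Slc7a3 encodes CAT3, a related carrier best known from brain. It had 15, 6 and 4 counts in controls and 23 and 1 in mutants. The highest and the lowest library were both mutants, so the log2 ratio of 1.04 ± 0.91 says little: it was -2.56 without mutant 4 and 2.01 without mutant 6. The gene lies on the X chromosome.

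Gpt2 encodes the mitochondrial alanine transaminase, which makes alanine and α-ketoglutarate from pyruvate and glutamate. Its level was 4.51, 4.38 and 3.03 CPM in controls and 9.55 and 7.72 CPM in mutants. The groups did not overlap, and the mean was 2.17 times as high in mutants, with a log2 ratio of 1.11 ± 0.30. The gene was weakly expressed, with 43 to 108 counts per library.

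Got1 encodes the cytosolic aspartate transaminase, which works in the malate-aspartate shuttle. Its level was 54.4, 69.8 and 60.3 CPM in controls and 94.6 and 99.5 CPM in mutants. The groups did not overlap, and the mean was 1.58 times as high in mutants (log2 ratio 0.66 ± 0.14).

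The partner of Got1 in the mitochondrion, Got2, went the other way without passing the test. Got2 was at 123, 123 and 114 CPM in controls and 84.5 and 98.0 CPM in mutants (-0.39 ± 0.13; edgeR adjusted p = 0.0733). On the FPKM scale the ratio of Got1 to Got2 was 0.533, 0.780 and 0.671 in controls and 1.43 and 1.44 in mutants. Got1 was thus the lower of the pair in every control and the higher in each mutant. Gpt, the cytosolic alanine transaminase, was more abundant than Gpt2 in every library, by FPKM 17.9 to 24.5 against 0.513 to 1.06 in controls. It rose from 37.1 ± 3.10 to 66.4 ± 16.8 CPM (0.84 ± 0.17; edgeR adjusted p = 0.00599), a call lost without mutant 6 (adjusted p = 0.141).

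**Figure D3:**
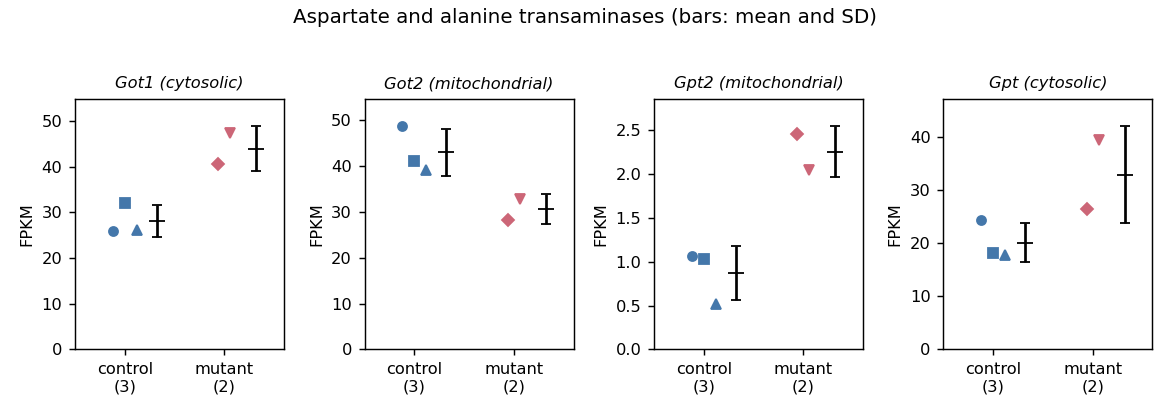
Deposited FPKM of the cytosolic and mitochondrial forms of aspartate transaminase (Got1, Got2) and alanine transaminase (Gpt, Gpt2) per library, on linear axes; black marks are mean and SD. Got1, Gpt2 and Gpt are higher in both mutants than in all controls, and Got2 is lower.

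In all, 3 of the 9 genes (Slc1a4, Gpt2 and Got1) were past the edgeR threshold upward, where 6.11% of the 14572 genes tested rose (891 genes; on FPKM with a pseudocount of 1, 335 rose and 131 fell). None was past it downward, where 4.17% (608 genes) fell. In 4 of the 9, both mutants lay above all controls (21.7% of all genes), and in 0 below (21.8%). These counts use the comparison known when the genes were chosen, so nothing is read from them. The median log2 ratio was 0.29 over the 9 genes and -0.01 over all genes tested. The count of 3 was 2 without control 1 or control 3 (Gpt2 no longer past the threshold), and 1 without mutant 4 or mutant 6, where only Slc1a4 was left.

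Per transcript length, the order of mean control levels was Slc3a2 (77.1 FPKM), Slc38a2 (29.5), Got1 (28.1), Slc1a5 (13.4), Slc7a1 (10.8), Slc7a5 (5.74), Slc1a4 (1.51), Gpt2 (0.869) and Slc7a3 (0.170). Among neighbours in this order, Slc38a2 and Got1 had overlapping ranges over the 3 controls, and the other pairs did not. In mutants the order was the same except that Got1 (43.9 FPKM) stood above Slc38a2 (26.1 FPKM). Slc1a4 and Gpt2, with the largest log2 ratios, were thus among the 3 least abundant of the 9, while the abundant Slc3a2 and Slc38a2 differed little.

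Promoter sequence from RefSeq (build GRCm38.p6) was at hand for 6 of the 9 genes: Slc1a4, Slc3a2, Slc7a1, Slc38a2, Gpt2 and Got1. The 250 bases before the start were searched on both strands for TGATGNAAN, a form of the C/EBP-ATF element, which 3.44% of 32851 such windows hold. Of these 6 genes, Got1 alone had a match, GTTGCATCA, whose first base lies 103 bases before the start, on the reverse strand; its neighbours in the window are shown in lower case. The windows of the 3 genes with higher levels in mutants are printed from 5′ to 3′ on the gene's strand, with the match in capitals, to show what a reader would scan for the element and for CpG.

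Slc1a4, minus strand, chr11:20332714-20332963: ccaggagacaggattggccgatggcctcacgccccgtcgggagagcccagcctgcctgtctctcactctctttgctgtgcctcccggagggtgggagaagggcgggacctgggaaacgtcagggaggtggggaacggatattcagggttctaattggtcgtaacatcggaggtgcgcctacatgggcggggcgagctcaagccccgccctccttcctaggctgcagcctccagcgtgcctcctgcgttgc

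Gpt2, plus strand, chr8:85492326-85492575: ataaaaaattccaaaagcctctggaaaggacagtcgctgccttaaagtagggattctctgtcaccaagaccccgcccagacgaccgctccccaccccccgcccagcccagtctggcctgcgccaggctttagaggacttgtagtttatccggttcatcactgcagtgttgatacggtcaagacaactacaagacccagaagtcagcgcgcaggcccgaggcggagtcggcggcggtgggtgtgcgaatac

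Got1, minus strand, chr19:43524606-43524855: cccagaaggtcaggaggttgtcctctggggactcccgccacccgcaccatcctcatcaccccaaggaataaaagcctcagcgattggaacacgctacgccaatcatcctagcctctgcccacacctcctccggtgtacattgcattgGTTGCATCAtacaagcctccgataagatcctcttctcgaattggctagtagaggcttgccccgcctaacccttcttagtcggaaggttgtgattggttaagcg

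These windows hold 16 CpG in Slc1a4, 16 in Gpt2 and 11 in Got1. The windows of the other members hold 11 in Slc3a2, 30 in Slc38a2, and 21 and 5 in the 2 windows of Slc7a1, and the median over all windows is 6. Methylation is not among the values analysed here. A match describes letters only, and the absence of one in the other windows says nothing about elements further away.

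A wider list of 43 other amino acid carriers contained larger changes than the 9 genes. Of 31 that could be tested, 4 rose and 4 fell, with a median log2 ratio of 0.40; over all genes 6.11% rose and 4.17% fell, with a median of -0.01. Slc38a3 (SNAT3, a glutamine carrier of liver and kidney) rose from 8, 17 and 14 counts to 202 and 220, 22.0 times in CPM (4.43 ± 0.34; edgeR adjusted p = 1.94e-06). Slc7a11 (xCT, the cystine carrier that pairs with Slc3a2) rose from 1.65, 1.54 and 1.69 to 15.2 and 12.0 CPM (3.06 ± 0.29; edgeR adjusted p = 1.79e-05). Both groups were well apart in these genes, in contrast to Slc38a2 and Slc7a5 of the same families.

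The other rises were of Slc38a6 (1.00 ± 0.21; edgeR adjusted p = 0.00771), an orphan relative of Slc38a2, and Slc7a7 (0.66 ± 0.14; edgeR adjusted p = 0.00813), from 281 ± 23.9 to 445 ± 62.9 CPM. Without mutant 6 neither passed (adjusted p = 0.0751 and 0.145). Exons of Slc7a7 overlap those of Oxa1l on the other strand, those of Slc1a1 and Slc6a20a also meet another gene, and no source used here says whether counting used strand. The falls included glutamate carriers of the Slc1 family that is shared with Slc1a4 and Slc1a5. Slc1a3 went from 23, 14 and 15 counts to 0 and 1, so that controls were 25.6 times as high (exact binomial 95% interval 4.40 to 1030, counting error only; edgeR adjusted p = 0.0158), and Slc1a1 fell by 1.53 ± 0.42 log2 units (edgeR adjusted p = 0.0352). Slc7a8, the abundant LAT2 chain, was at 381 ± 11.7 CPM in controls and fell to 275 ± 2.70 CPM (-0.47 ± 0.13; edgeR adjusted p = 0.0295). Slc6a20a, the proline carrier, fell by 0.77 ± 0.21 (edgeR adjusted p = 0.0324). All 4 falls were lost without control 1 or mutant 4 (adjusted p 0.0590 to 0.262), and those of Slc1a3, Slc1a1 and Slc7a8 also without mutant 6 (0.0739, 0.127 and 0.193). That of Slc1a1 was lost without control 3 as well (0.110).

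Other close relatives of the 9 genes did not pass. Slc38a1 (SNAT1) was at 299, 274 and 298 CPM in controls and 272 and 258 CPM in mutants (edgeR adjusted p = 0.548). Slc7a6, the y+LAT2 chain, was at 20.2, 19.8 and 13.9 CPM and 21.7 and 23.5 CPM (edgeR adjusted p = 0.327). Slc7a2, a cationic carrier of the Slc7a1 family, was at 5.48 ± 0.451 and 4.52 ± 0.494 CPM (edgeR adjusted p = 0.594), and Slc38a4 had a log2 ratio of 0.16 ± 0.24 (edgeR adjusted p = 0.725). The number of rises in the list was 9 without control 2 and 2 without mutant 6. The number of falls was 0 without control 1 or mutant 4 and 1 without mutant 6.

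**Figure D4:**
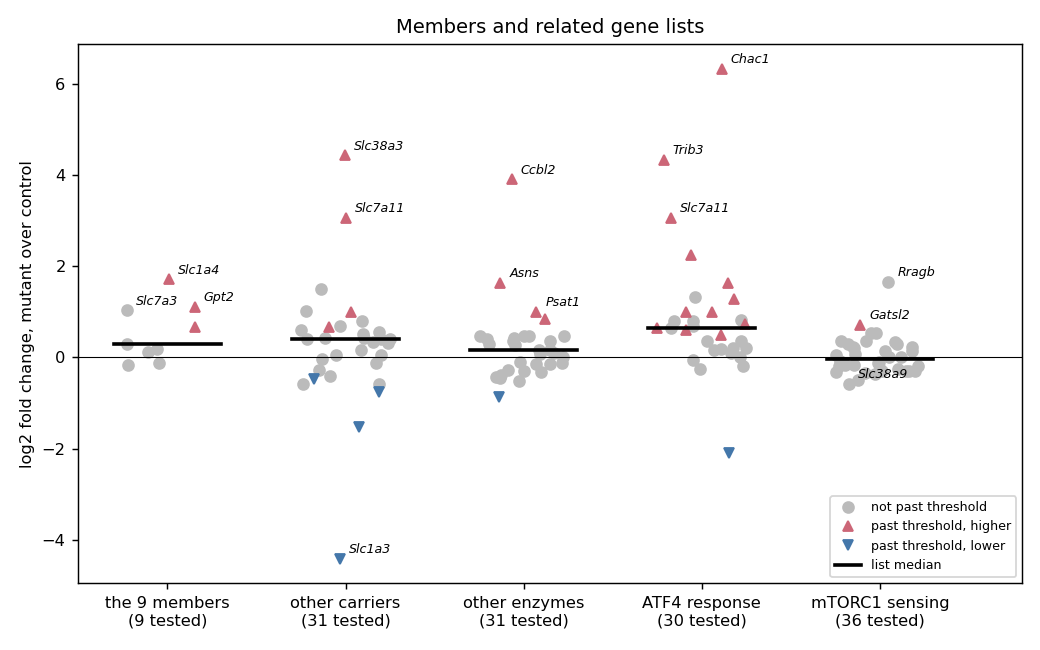
Log2 fold change, mutant over control, of each tested gene of the 9 and of 4 related lists; red and blue triangles are genes past the edgeR adjusted p threshold of 0.05, grey points are the others, and black bars are list medians. The 9 genes span -0.16 to 1.71, whereas Chac1, Slc38a3 and Trib3 of the related lists lie above 4.

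Among 34 other transaminases and enzymes of glutamate, aspartate, asparagine and proline, 31 were tested, 4 rose and 1 fell (median 0.16), beside 6.11% and 4.17% of all genes. Ccbl2, which transaminates kynurenine and cysteine conjugates, rose from 31, 32 and 40 counts to 404 and 361 (3.90 ± 0.25; edgeR adjusted p = 4.19e-07); an antisense RNA overlaps its exons. Asns, asparagine synthetase, a known ATF4 target that uses aspartate, rose from 30.7 ± 2.21 to 95.6 ± 4.85 CPM (1.64 ± 0.14; edgeR adjusted p = 4.98e-06). Psat1, the transaminase of serine synthesis, rose by 1.00 ± 0.18 (edgeR adjusted p = 0.00375), and Gpt is given above. Psat1 was lost without mutant 4 (0.0635).

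Prodh, which breaks down proline, fell by 0.88 ± 0.24 (edgeR adjusted p = 0.0331), lost without control 1, control 3 or mutant 4 (0.0841, 0.0635 and 0.284). Glul, glutamine synthetase, missed the threshold (0.46 ± 0.16; edgeR adjusted p = 0.0854). The ornithine transaminase Oat (-0.09 ± 0.26; edgeR adjusted p = 0.862) and the glutamate dehydrogenase Glud1 (0.01 ± 0.13; edgeR adjusted p = 0.984) did not pass.

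Of 31 regulators and targets of the ATF4 response, 30 were tested, 12 rose and 1 fell, with a median of 0.64, beside 6.11% and 4.17% of all genes and their median of -0.01. This list shares Asns and Psat1 with the enzymes and Slc7a11 with the carriers. Its members were listed with earlier results of these data known. Chac1, which degrades glutathione, rose from 2, 3 and 1 counts to 138 and 114, 85.3 times in CPM (controls at 0.0117 of mutants, exact binomial 95% interval 0.00426 to 0.0259, counting error only; 6.33 ± 0.47; edgeR adjusted p = 1.65e-06). Trib3, a pseudokinase that feeds back on ATF4, rose from 11, 11 and 7 counts to 166 and 121 (4.33 ± 0.37; edgeR adjusted p = 6.37e-06), and the transcription factor Atf3 rose by 2.24 ± 0.35 (edgeR adjusted p = 0.00120).

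Atf4 itself was at 115, 129 and 123 CPM in controls and 166 and 179 CPM in mutants (0.49 ± 0.13; edgeR adjusted p = 0.0230), a rise lost without control 1, mutant 4 or mutant 6 (0.101, 0.122 and 0.202). Ddit3, which encodes CHOP, a partner of ATF4, was at 11.4 ± 1.31 and 17.7 ± 0.602 CPM (0.64 ± 0.20; edgeR adjusted p = 0.0612), and passed without control 2 (0.0451) and with upper-quartile scaling (0.0492; range over alternatives 0.0451 to 0.312); its exons overlap those of Mars on the other strand. Cth, of cysteine synthesis, fell by 2.10 ± 0.48 (edgeR adjusted p = 0.0135), lost without mutant 4 (log2 ratio -1.88). Its controls were widely spread, at 4.90, 19.3 and 15.9 CPM, against 2.57 and 3.63 CPM in mutants. The fall was also lost with limma-voom (adjusted p = 0.114). With limma on FPKM it was lost with pseudocount 1 (adjusted p = 0.0571) and a mean of at least 1 (0.0611). The other 8 of the 12 besides Chac1, Trib3, Atf3 and Atf4 were Slc7a11, Asns and Psat1, given above, and Vldlr, Atf5, Psph, Mthfd2 and Eif4ebp1, the last 5 between 0.59 and 1.29 (edgeR adjusted p 0.000427 to 0.0453). The number of rises was 8 without control 1 or mutant 6 and 7 without mutant 4. The log2 ratios of Slc1a4, Gpt2 and Got1 lay within the range of the rises in this list, and those of Slc3a2, Slc7a5, Slc7a1, Slc38a2 and Slc1a5 below all of them. The threshold that bounds this range is also the one that Slc1a4, Gpt2 and Got1 passed. List and members were chosen with earlier results known, so nothing is read from this placing.

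Of 36 genes of amino acid sensing at mTORC1, 1 rose and 0 fell by edgeR, with a median of -0.04, beside 6.11% and 4.17% of all genes. Of the 36, 7 had an unadjusted edgeR p under 0.05, where 3732 of the 14572 genes tested did. DESeq2 called 2 higher and 0 lower. The one that rose was Gatsl2, the former symbol of an arginine sensor relative, from 28.9 ± 2.42 to 47.4 ± 3.36 CPM (0.71 ± 0.15; edgeR adjusted p = 0.00819), lost without mutant 4 (0.107). Without control 2, 2 rose and 1 fell. Rragb, an X-linked GTPase of this pathway with few reads, had the largest log2 ratio (1.66 ± 0.71; edgeR adjusted p = 0.158). The lysosomal arginine sensor Slc38a9, a relative of Slc38a2, was at 24.8 ± 2.36 and 16.6 ± 0.381 CPM (-0.58 ± 0.18; edgeR adjusted p = 0.0585).

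The genes nearest in pattern to the mean of the 9 (log2 CPM centred per gene, smallest root mean square difference over the 5 libraries, among 10003 genes) were Copz2, Peg3, Prune, Lama4 and Ptpn9, at differences of 0.04 log2 units each. The mean pattern was 0.50 in mutant 4 and 0.03 in mutant 6, and -0.08 to -0.24 in controls. The gap between the mutants came mostly from Slc7a3. Without Slc7a3 it was 0.34 and 0.22 in mutants and -0.17 to -0.20 in controls, and the nearest genes were Gpd2, Raph1, Pak1, Gaa and Rsu1, with 0 shared. These 5 were found after the values of Slc7a3 had been seen.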

How the data were processed

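RNA of 3 control and 2 mutant samples of laser-captured cells was amplified as cDNA before sequencing, per the labels' protocols. The values the authors deposited are whole-number counts of reads for 28644 RefSeq transcripts and, for the same rows, FPKM. Per the submitters' processing notes, mm9 and edgeR were used. No source used here names the aligner or counter, and 0 columns of per-sample values were unmatched. A fixed factor does not link the FPKM to the counts: for 5305 transcripts with at least 500 counts, the ratio of counts to FPKM varied by 7.5% (median SD). Counts were tested in R 4.3.3 with edgeR 4.0.16 (quasi-likelihood F-test, default filter on low counts, TMM, no covariate, 3 residual degrees of freedom), with Benjamini-Hochberg adjustment over 19353 rows (14572 genes) and a threshold of 0.05. A gene was called on its row with the highest mean count. CPM are TMM-scaled; each SE is the size of the log2 ratio divided by the square root of F. Alternatives used DESeq2 1.42.0 and limma 3.58.1, and the code was tested on simulated data. The 9 genes and all lists were chosen with earlier results of these data known. Named genes follow a fixed rule: all 9, their nearest relatives, Atf4, Ddit3, Dnmt1, Mki67, up to 4 largest called rises and falls per list, and 5 genes of nearest pattern. Glul, Glud1, Oat, Slc38a9, Rragb, Vldlr, Atf5, Psph, Mthfd2 and Eif4ebp1 were added after their values were seen. So were the markers Krt18, Cdx2, Ascl2, Lgr5, Csf1r and Aif1. GRCm38.p6 and GENCODE tables were used for names, promoters and overlaps only. Intervals cover counting error only. The result of 1 gene is not reported here.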

Additional observations from a re-analysis of the deposited data

How the results depend on the processing

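No paired analysis was possible because the groups share no replicate number. The 9 genes were compared under 15 other settings, those on FPKM as log2(FPKM + pseudocount). Of the 9 genes, the sign of Slc1a4, Gpt2, Got1, Slc3a2, Slc7a5, Slc7a1 and Slc38a2 was the same in all 15. That of Slc1a5 was the same in 11, and that of Slc7a3 in 10; Slc7a3 turned with limma-voom (-0.07) and without mutant 4, and had no value with the stricter filter, with a mean FPKM of at least 1 or without control 1, where it was not tested. Leaving out 1 library at a time moved the log2 fold change between 1.62 and 1.86 for Slc1a4, 0.95 and 1.25 for Gpt2, and 0.58 and 0.77 for Got1. On FPKM that of Slc1a4 was 1.02 with pseudocount 1 and 1.40 with 0.1, and that of Gpt2 was 0.81 and 1.33. Without a pseudocount the mean of Slc1a4 was 2.69 times as high in mutants by FPKM and 3.29 times by CPM.

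Over all genes, 891 rose and 608 fell. Leaving out a library gave 408 to 1057 and 170 to 645. FPKM gave 335 and 131 (pseudocount 1), 341 and 165 (0.1), and 258 and 131 (mean of at least 1). With no filter 935 fell. Of the 9 genes, 1, 0 and 0 were past the threshold upward in the same FPKM settings, and 1 to 3 without a library; downward there were 0 throughout. Carriers that rose numbered 8 with no filter, 2 on FPKM with pseudocount 1 or a mean of at least 1, and 2 to 9 without a library. Carriers that fell numbered 2 with the stricter filter (CPM of 5 in 2 libraries), 0 in each FPKM setting and 0 to 5 without a library. Enzymes that rose numbered 2 in each FPKM setting and 3 to 5 without a library. Enzymes that fell numbered 2 with no filter or DESeq2, 0 in each FPKM setting and 0 to 1 without a library. ATF4 response genes that rose numbered 6, 6 and 5 in the FPKM settings and 7 to 14 without a library; those that fell numbered 0 with limma-voom and on FPKM with pseudocount 1 or a mean of at least 1, and 0 to 1 without a library. Of mTORC1 genes, 2 rose with upper-quartile scaling, with no filter, with the stricter filter and with DESeq2, 0 rose on FPKM, and 0 to 2 without a library; 1 fell with no filter, and 0 to 1 without a library. Among named genes, the calls of Slc7a7, Slc7a8, Slc6a20a, Psat1, Gpt, Prodh, Gatsl2 and Atf4 were lost in each FPKM setting. Those of Slc1a3 and Slc1a1 were lost on FPKM with pseudocount 1 and 0.1 (limma adjusted p 0.0959 to 0.243). Slc1a1 was also lost with limma-voom (adjusted p = 0.086). With limma on FPKM, Slc38a6 was lost with pseudocount 1 (adjusted p = 0.0567) and Mki67 with a mean of at least 1 (0.0537). The causes were not tested. With 3 against 2 libraries and 1 to 23 counts per library, no difference in Slc7a3 could be measured at this depth.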
